A study of Mus musculus with 6 samples.

Results

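The 9 genes described here encode the visual pigments of mouse cones and the proteins that turn light capture into an electrical signal in these cells. They are the opsins Opn1sw and Opn1mw, the arrestin Arr3, the transducin subunits Gnat2 and Gngt2, the phosphodiesterase subunits Pde6c and Pde6h, and the channel subunits Cnga3 and Cngb3. They were found by gene symbol, each matched a single row, and they are 9 of the 55487 genes listed. RNA was measured in vascular endothelial cells (VECs) sorted from postnatal day 7.5 (P7.5) mouse retinas as cells positive for both GFP and tdTomato. The mutant animals, Bmal1;CKO (Bmal1 FL/FL;tdTomato FL/+;Pdgf-icreER), carried floxed Bmal1, and the controls (tdTomato FL/+;Pdgf-icreER) did not. Both genotypes carried the tamoxifen-inducible Cre, which also expresses GFP, and the Cre-dependent tdTomato reporter. Tamoxifen was given to both on days P0.5 through P2.5, and each genotype had 3 libraries. Each library is a separate labelled replicate, and Pdgf-icreER is a driver used for its activity in endothelial cells. The study asked which transcripts depend on the clock gene Bmal1 in these cells.

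Cones are the photoreceptors of daylight and color vision. In a cone, light activates an opsin, which activates the G protein transducin. Transducin relieves the inhibition of a phosphodiesterase that breaks down cyclic GMP, cation channels held open by cyclic GMP then close, and a cone arrestin ends the signal of the opsin. Rods use a parallel set of proteins from separate genes, and in the young mouse retina the short-wavelength opsin appears earlier than the middle-wavelength opsin. The cascade is a feature of photoreceptors, so the sort label was set against marker genes. All 14 endothelial markers had reads in every library, with a summed level of 149315 to 437196 normalized counts (reads divided by the size factor of the library). The summed level of 10 microglia markers was 6.27 to 20.4 times as high, and that of 8 rod genes was 222023 to 551815 normalized counts. In bulk RNA, fewer cells of a type and less RNA per cell cannot be told apart.

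Reads assigned to genes numbered 71145068 to 104017800 per library, and 27970 to 61428 of them fell on the 9 cone genes. This was 0.0321% to 0.0765% of the reads. Bmal1, listed as Arntl, had 1700.4, 3489 and 2928 normalized counts in control libraries 1 to 3 and 1779, 2747 and 2415 in Bmal1;CKO libraries 4 to 6. The groups overlapped. These counts are over the whole gene, and loss of the floxed part was not tested here. By ddPCR on sorted cells, the study reported significantly less Bmal1 transcript in the mutant. Control library 1 stood apart, and not for the cone genes only. It had the fewest genes with a read, 21598, near the 22142 of Bmal1;CKO library 4 and against 23889 to 27904 in the others. Its summed levels of endothelial and microglia markers were the highest of the 6 libraries. For microglia markers Bmal1;CKO library 4 was near it, at 4.31e+06 against 4.49e+06 normalized counts. Among the cone genes, control library 1 held the lowest value of the 6 libraries in 6 of the 9. It shared the lowest value of 0 reads with control library 2 in Cnga3. In 7 of the 9 it was at under 50% of the median of the other 5 libraries. The main values that rest on it are also given without it.

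Promoter sequence was available in RefSeq (GRCm38.p6), as windows of 300 bases that span the start of the transcript and lie mostly upstream of it, for 6 of the 9 genes. Windows were read 5′ to 3′ on the strand of the gene. The opsins and Arr3 are shown because they span the range of matches to TAATC, from 0 to 3, where TAATC is the core bound by the photoreceptor factors CRX and OTX2. Matches to TAATC or its reverse complement GATTA are in capitals. The Opn1sw window lies at chr6:29380464-29380763 on the reverse strand, inside the longer span that the deposited table gives for the gene, the Opn1mw window at chrX:74127216-74127515 and the Arr3 window at chrX:100605247-100605546, both on the forward strand.
Opn1sw: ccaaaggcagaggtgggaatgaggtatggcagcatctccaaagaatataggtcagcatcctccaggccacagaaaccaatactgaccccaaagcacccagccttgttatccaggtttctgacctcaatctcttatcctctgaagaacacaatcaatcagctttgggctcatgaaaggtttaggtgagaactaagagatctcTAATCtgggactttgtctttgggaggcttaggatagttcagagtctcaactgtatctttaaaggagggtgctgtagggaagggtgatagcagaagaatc
Opn1mw: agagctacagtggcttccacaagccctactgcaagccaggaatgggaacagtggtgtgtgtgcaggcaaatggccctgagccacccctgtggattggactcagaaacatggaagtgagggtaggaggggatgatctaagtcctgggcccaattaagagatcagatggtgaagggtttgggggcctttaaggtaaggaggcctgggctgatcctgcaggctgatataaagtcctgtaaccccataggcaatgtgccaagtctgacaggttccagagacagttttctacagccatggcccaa
Arr3: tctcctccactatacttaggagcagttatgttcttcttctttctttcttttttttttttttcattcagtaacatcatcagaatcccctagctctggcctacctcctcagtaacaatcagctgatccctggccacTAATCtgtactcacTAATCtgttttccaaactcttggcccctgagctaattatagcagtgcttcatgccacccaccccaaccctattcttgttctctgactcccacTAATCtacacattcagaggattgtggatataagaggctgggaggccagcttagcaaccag
The Opn1sw window held 1 match, the Arr3 window 3 and the Opn1mw window 0. Gnat2 also held 1, so 3 of the 7 windows of the 6 genes had a match, against 22.0% of the 32851 RefSeq windows of this length. The E-box CACGTG, the element bound by BMAL1 with CLOCK, reads the same on both strands. It was in 0 of the 7 windows of these 6 genes and in 7.15% of all windows. These counts describe the letters of the windows and say nothing about binding in these cells.

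All 9 genes had at least 10 reads in at least 3 libraries and were tested. By limma-trend on log2(normalized count + 1), a moderated linear model with genotype as its term, 0 of the 9 genes were called at an adjusted p under 0.05. Over all 20459 genes tested, 0% were called at that level, and the smallest adjusted p was 0.11. At an unadjusted p under 0.05, 0 of the 9 genes and 4.92% of all genes were called. In 0 of the 9 genes were the 3 control values separated from the 3 Bmal1;CKO values, against 11.2% of all genes. Fitted means were higher in Bmal1;CKO for 8 of the 9 genes, with a median log2 fold change of 0.47. By the count models the median was lower, at 0.24 by edgeR with TMM scaling or by DESeq2 without shrinkage and 0.10 by DESeq2 with a normal prior. For all genes by limma-trend, 56.6% were higher and the median was 0.11. Without control library 1 the median of the 9 genes was -0.080.

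**Figure D1:**
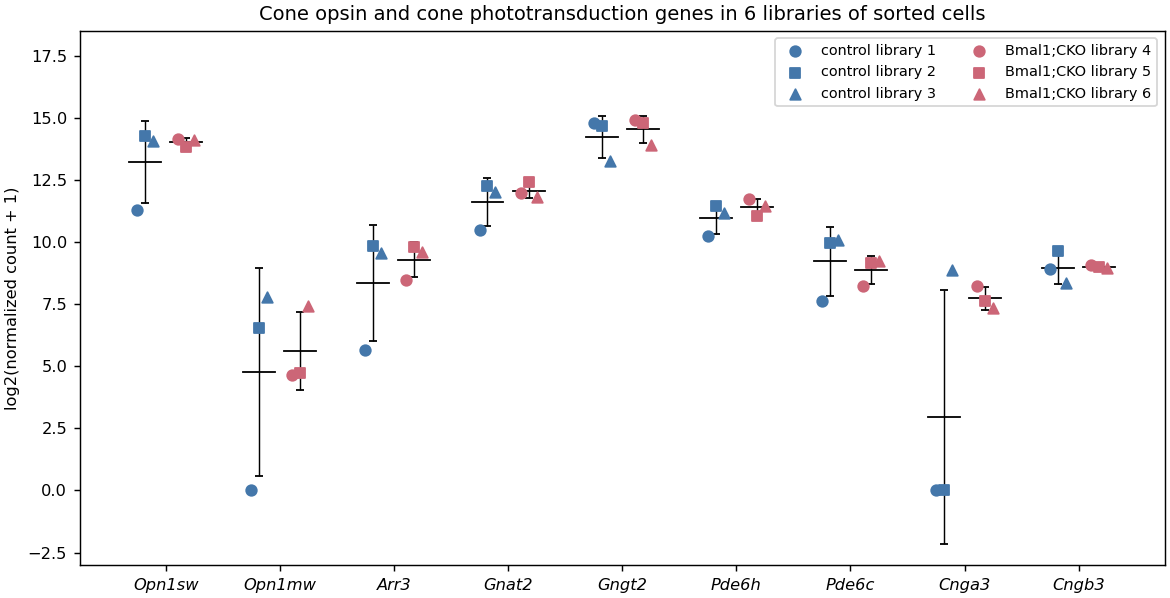
Level of each cone gene in the 3 control (blue) and 3 Bmal1;CKO (red) libraries, as log2(normalized count + 1), with horizontal lines at the group means and bars of 1 SD. The groups overlap for all 9 genes, and control library 1 (blue circle) is the lowest point for Opn1sw, Opn1mw, Arr3, Gnat2, Pde6h and Pde6c.

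The visual pigments differed in level by orders of magnitude. Opn1sw, the short-wavelength opsin (ENSMUSG00000058831), spans positions 29376671 to 29388468 of chromosome 6 (GRCm38, reverse strand). Normalized counts were 2531, 20014 and 17504 in control and 18170, 14661 and 17958 in Bmal1;CKO. Control library 1 was at 14.1% of the median of the other libraries, which all lay within 1.37-fold of each other. The means were 13350 ± 9453 in control and 16930 ± 1968 in Bmal1;CKO (SD, n = 3 each). The fitted log2 fold change was 0.81 (SE 0.73, adjusted p 0.883 by limma-trend), with a 95% interval from -0.89 to 2.51. It was 0.34 by edgeR with TMM scaling and -0.15 without control library 1.

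Opn1mw, the middle-wavelength opsin (ENSMUSG00000031394), spans positions 74127464 to 74150760 of chromosome X (forward strand). Control library 1 had 0 reads, and control libraries 2 and 3 had 92.8 and 221 normalized counts. The Bmal1;CKO libraries had 23.9, 25.9 and 170, the first 2 of these from 17 and 30 reads. At the depth of control library 1, a count of 0 allows up to 3 reads, or 3.69 normalized counts. The log2 fold change of 0.82 had an SE of 2.07 and an adjusted p of 0.941 by limma-trend, and its 95% interval ran from -3.996 to 5.63. Its direction changed with the treatment of low counts, to -0.51 by edgeR with TMM scaling and -0.040 with a pseudocount of 10. With 0 to 310 reads per library, the spread between libraries of a genotype was wider than the fitted difference.

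Arr3, the cone arrestin (ENSMUSG00000060890), spans positions 100605497 to 100618493 of chromosome X (forward strand). It had 49.2, 908 and 765 normalized counts in control and 360.1, 887 and 780.1 in Bmal1;CKO. Control library 1, with 40 reads, was at 6.31% of the median of the other libraries, and Bmal1;CKO library 4 was the next lowest. Arr3 had a log2 fold change of 0.95 (SE 1.11, adjusted p 0.889 by limma-trend), which was 0.24 by edgeR with TMM scaling and -0.40 without control library 1.

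The transducin subunits were among the more abundant of these transcripts. Gnat2, the cone transducin alpha subunit (ENSMUSG00000009108), spans positions 108092789 to 108101432 of chromosome 3 (forward strand). It had 1460.5, 4982 and 4201 normalized counts in control and 4011, 5535 and 3653 in Bmal1;CKO. Control library 1 was again the lowest, at 34.8% of the median of the others, and the remaining 5 libraries were within 1.52-fold. Its log2 fold change was 0.47 (SE 0.48, adjusted p 0.885 by limma-trend), and -0.080 without control library 1.

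Gngt2, the cone transducin gamma subunit (ENSMUSG00000038811), spans positions 95837216 to 95845734 of chromosome 11 (forward strand). It had 28464, 26322 and 9809 normalized counts in control and 31198, 28515 and 15435 in Bmal1;CKO. Its lowest libraries were control library 3 and Bmal1;CKO library 6, and control library 1 was at 108% of the median of the others. Gngt2 made up 26.7% to 82.7% of the reads on the 9 genes, and the highest share was in control library 1. Between the genotypes the log2 fold change was 0.30, with an SE of 0.47 and an adjusted p of 0.908 by limma-trend. Gngt2 is also expressed by myeloid cells. Over the 6 libraries its log level had a Pearson r of 0.41 with the mean of the microglia markers, while the other 8 cone genes had from -0.92 for Pde6c to 0.13 for Cnga3. These are descriptions over 6 points that share their size factors, and the part of microglia RNA in the Gngt2 level was not tested. Control library 1, with the highest summed microglia level, is among the 6 libraries, and no r with the microglia markers was computed without it.

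Gnb3, the transducin beta subunit that pairs with the cone alpha subunit and also serves ON bipolar cells, was singled out after its values were seen. It had 28544, 46712 and 45790.3 normalized counts in control and 44078, 60284 and 49690.5 in Bmal1;CKO. Control library 1 was the lowest here too, and the log2 fold change was 0.37 with an adjusted p of 0.883 by limma-trend.

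The cone phosphodiesterase is built from a catalytic subunit and a small inhibitory subunit. Pde6h, the inhibitory subunit (ENSMUSG00000064330), spans positions 136923832 to 136968865 of chromosome 6 (forward strand). It had 1227, 2847 and 2321 normalized counts in control and 3399, 2148 and 2780.3 in Bmal1;CKO. Its log2 fold change was 0.44 (SE 0.38, adjusted p 0.883 by limma-trend), with a 95% interval from -0.45 to 1.34. With each library left out in turn, the value stayed above 0 for Pde6h, from 0.086 to 0.69, and for Cnga3, but not for the other 7 genes. Pde6c, the catalytic subunit (ENSMUSG00000024992), spans positions 38132781 to 38183958 of chromosome 19 (forward strand). It had 198, 1008 and 1077 normalized counts in control and 302, 572 and 605 in Bmal1;CKO. Of the 9 genes only Pde6c had a lower fitted mean in Bmal1;CKO, at a log2 fold change of -0.35 with an SE of 0.74 and an adjusted p of 0.931 by limma-trend. Without control library 1, all 3 Bmal1;CKO values were below both remaining control values. Its log2 fold change was then -1.14, with an unadjusted p of 0.0292 and adjusted p of 0.543 by limma-trend. It was 0.027 without control library 2 and 0.075 without control library 3.

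The channel subunits gave the most uneven and the most even of the profiles. Cnga3, the alpha subunit of the cone cyclic GMP-gated channel (ENSMUSG00000026114), spans positions 37214434 to 37263384 of chromosome 1 (forward strand). Control libraries 1 and 2 had 0 reads, which allows up to 3.69 and 2.78 normalized counts. Control library 3 had 472, the highest value of all, and the Bmal1;CKO libraries had 298, 199 and 161. All 3 Bmal1;CKO values thus lay between the control values. The fitted log2 fold change was 4.77 (SE 2.32, adjusted p 0.883 by limma-trend) and depended on how the zeros were treated. It was 3.29 without control library 1, 2.61 with a pseudocount of 10 and 0.44 by edgeR with TMM scaling, and DESeq2 gave no p for this gene. The exact permutation test of the normalized counts, two-sided, gave p = 0.8. Cngb3, the beta subunit (ENSMUSG00000056494), spans positions 19280850 to 19510623 of chromosome 4 (forward strand). It had 485, 793 and 328 normalized counts in control and 541, 515 and 493 in Bmal1;CKO. The Bmal1;CKO values lay within 1.10-fold of each other and inside the control range, and the log2 fold change was 0.04 with an SE of 0.48 and an adjusted p of 0.99 by limma-trend.

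**Figure D2:**
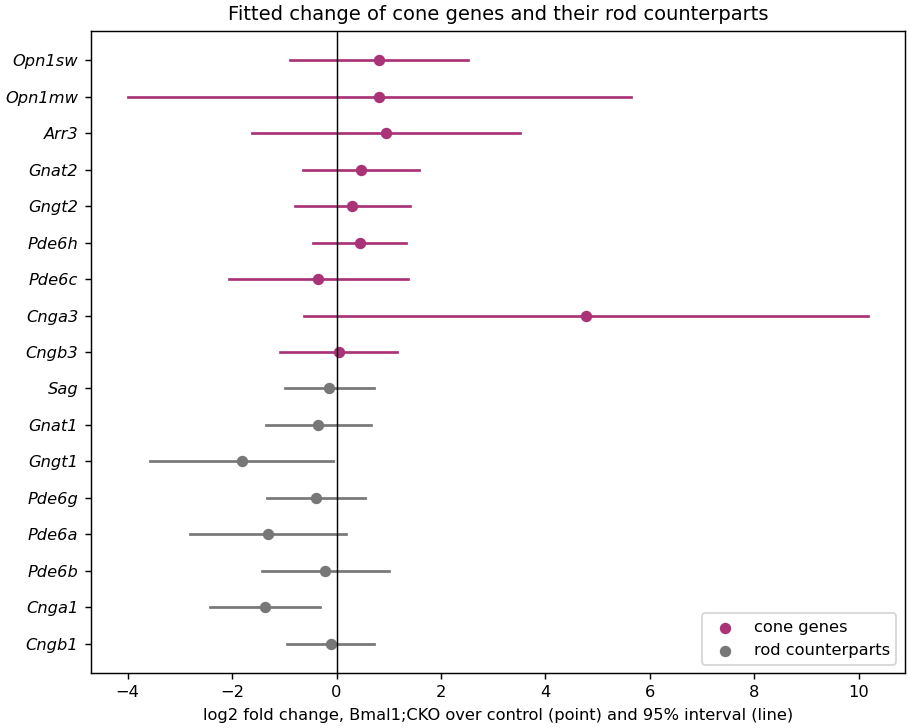
Fitted log2 fold change of Bmal1;CKO over control (points) with its 95% interval (lines) for the 9 cone genes (purple) and 8 rod counterparts (gray), from limma-trend on log2(normalized count + 1). The intervals of all 9 cone genes cross 0, and those of Opn1mw and Cnga3, with libraries at 0 reads, are the widest.

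The two-sided exact permutation tests of the 9 genes gave p from 0.4 for Pde6c to 1 for Cngb3, where 3 libraries against 3 allow no p below 0.1. On the log2 scale, the SD of the control libraries was larger than that of the Bmal1;CKO libraries in 9 of the 9 cone genes, and in 2 of 8 rod counterparts. Without control library 1 it was larger in 3 of the 9 cone genes, namely Gngt2, Cnga3 and Cngb3. For Opn1sw the control SD was 1.67 with that library and 0.14 without it, against 0.17 in Bmal1;CKO. The difference in spread was not tested.

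To order the genes by abundance, normalized counts were divided by the length of the exons of the gene in kilobases. Gngt2 was the highest, with a median over the 6 libraries of 14594 normalized counts per kilobase, followed by Opn1sw with 6934. Gngt2 was above Opn1sw in 5 of the 6 libraries and below it in control library 3. Gnat2 had 1371 per kilobase, below Opn1sw and above Arr3 in 6 of 6 libraries. Arr3 and Pde6h had 328 and 325, and either was the higher in 3 libraries, so their order was not resolved. Pde6c followed with 198, Cngb3 with 107, Cnga3 with 45.4 and Opn1mw with 38.0. Cnga3 was above Opn1mw in 2 of the 6 libraries only, both had libraries at 0 reads, and their order was not resolved either. The order was the same with the length of the principal transcript of each gene. The lowest Opn1sw level, 990 per kilobase in control library 1, was above the highest Opn1mw level, 142 per kilobase.

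Correlations of Opn1sw with other cone genes changed when control library 1 was left out. The log levels of Opn1sw had a Pearson r of 0.94 with Arr3, 0.92 with Gnat2, 0.92 with Pde6h and 0.90 with Opn1mw over the 6 libraries, in which the low control library 1 lies apart from the other points. Without it, over 5 libraries, these were -0.17, -0.42, 0.70 and 0.41. Gngt2 had an r of -0.30 with Opn1sw and 0.70 with Cngb3 over 6 libraries, and -0.074 and 0.77 without control library 1.

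The genes whose log levels were most like the mean of the 9 cone genes, among 15605 others with a mean of at least 100 normalized counts, were Rnf180, Klhl32, Hectd3, Olfml2b and Tmem209, with r of 0.9991 to 0.9978 over 6 libraries. Rnf180 had 444 normalized counts in control library 1 and 1532 to 2506 in the others. Klhl32 had 0 there and 180.03 to 1195 in the others. Without control library 1 the r of these 5 genes was 0.967 to 0.992. The mean of the cone genes includes Cnga3, which had 0 reads in control library 2. Without control library 1, Opn1sw had an r of -0.60 with Cnga3 and 0.70 with Pde6h. Likeness to the mean is therefore not likeness to each cone gene. Over the 6 libraries, 68 genes reached an r of at least 0.99 with the mean of the cone genes. For Opn1sw alone the most alike were Rab15, Mettl9 and Gria3, and 201 genes reached that r. For Gngt2 they were Dhps, Commd4 and 2700046G09Rik, with r of 0.9885 to 0.9876, and 0 genes reached 0.99.

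Of the 9 cone genes, 7 were set beside the rod gene that does the same task in rods, within each library, which gave 8 pairs. Arr3 was at 0.0459% to 0.947% of Sag, the rod arrestin, with the lowest value in control library 1. Gnat2 was at 13.9% to 108% of Gnat1, the rod transducin alpha subunit.

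The transducin gamma subunits were the only pair of the 8 whose ratio did not overlap between the groups. For comparison, 11.2% of all genes had levels that did not overlap, and 1 of 8 is near that share. That share is for levels of single genes, and none was computed for ratios of paired genes. Gngt2 was at 34.9%, 37.8% and 92.2% of Gngt1 in control and at 404%, 172% and 143% in Bmal1;CKO. Gngt1, the rod subunit, had 81661, 69689 and 10642 normalized counts in control and 7728, 16621 and 10789 in Bmal1;CKO. It was high in control libraries 1 and 2 and within 2.15-fold in Bmal1;CKO, with control library 3 inside that range. The log2 fold change of Gngt1 was -1.82 (SE 0.75, unadjusted p 0.0434, adjusted p 0.883 by limma-trend), against the 0.30 of Gngt2.

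For the phosphodiesterase, Pde6h was at 0.450% to 2.92% of Pde6g, the rod inhibitory subunit. Pde6c was at 9.33% to 157% of Pde6a and at 1.38% to 3.58% of Pde6b, the rod catalytic subunits. Cnga3 was at 0% to 16.3% of Cnga1 and Cngb3 at 0.968% to 2.19% of Cngb1, the rod channel subunits. Control library 1 held the lowest ratio in 7 of the 8 pairs and shared the value of 0% with control library 2 in the remaining pair, Cnga3 with Cnga1.

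**Figure D3:**
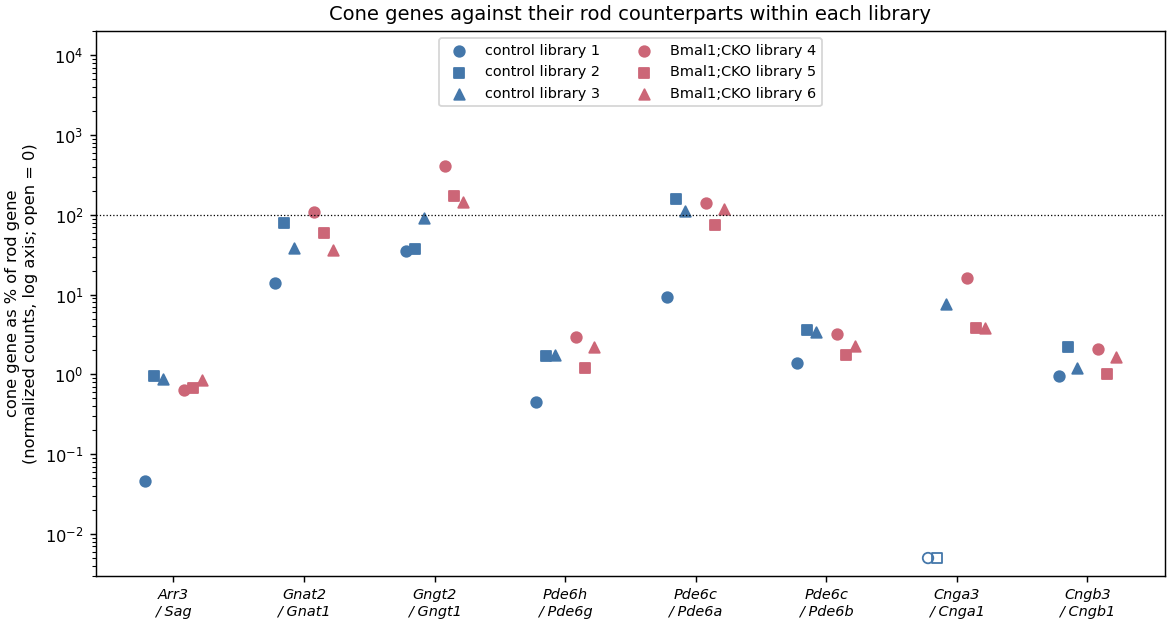
Normalized count of 7 cone genes as a percentage of their rod counterparts in each control (blue) and Bmal1;CKO (red) library, on a log axis; open symbols mark libraries with 0 reads of the cone gene and the dotted line marks equal counts. Control library 1 (blue circle) is low in most pairs, and the groups are apart only for Gngt2 over Gngt1, at 34.9% to 92.2% against 143% to 404%.

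The rod counterparts had their lowest values in another library. Bmal1;CKO library 4 was the lowest for 8 of the 8 rod genes and for 0 of the 9 cone genes. Control library 1 was the lowest for 0 of the 8 rod genes and the highest for 4, namely Gngt1, Pde6g, Pde6a and Cnga1. The highest value was in Bmal1;CKO library 5 for Sag, Pde6b and Cngb1, and in control library 3 for Gnat1. All 8 rod genes had a lower fitted mean in Bmal1;CKO, and their median log2 fold change was -0.37. Bmal1;CKO library 4 enters these fitted means, and no rod fold change without it is given here. Of the rod genes, 2 of the 8 were at an unadjusted p under 0.05, namely Gngt1 and Cnga1, against the 4.92% of all genes. Cnga1 had 12999, 8738 and 6148 normalized counts in control and 1831, 5258 and 4196 in Bmal1;CKO, without overlap, at a log2 fold change of -1.37 and an adjusted p of 0.883 by limma-trend. The remaining log2 fold changes were -0.14 for Sag, -0.35 for Gnat1, -0.39 for Pde6g, -1.31 for Pde6a, -0.21 for Pde6b and -0.11 for Cngb1.

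The mean log2 level of the 9 cone genes minus that of the 8 rod genes was -7.15, -4.51 and -3.46 in control and -2.82, -4.01 and -3.41 in Bmal1;CKO. The Bmal1;CKO mean was 1.63 higher. Without control library 1 it was 0.58 higher, and the difference was not tested. Cnga3, with libraries at 0 reads, weighs on this mean. Without control library 1 the log2 fold change of Cnga3 was 3.29, while the median of the 9 cone genes was -0.080. As a sum, the cone genes were at 6.24%, 13.8% and 11.9% of the 8 rod genes in control and 26.3%, 12.4% and 14.0% in Bmal1;CKO. The groups overlapped, and Bmal1;CKO library 4, where the rod genes were lowest, gave the highest share. Relative to the summed endothelial markers the cone genes were at 7.87%, 22.7% and 15.8% in control and 21.3%, 35.5% and 13.3% in Bmal1;CKO.

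**Figure D4:**
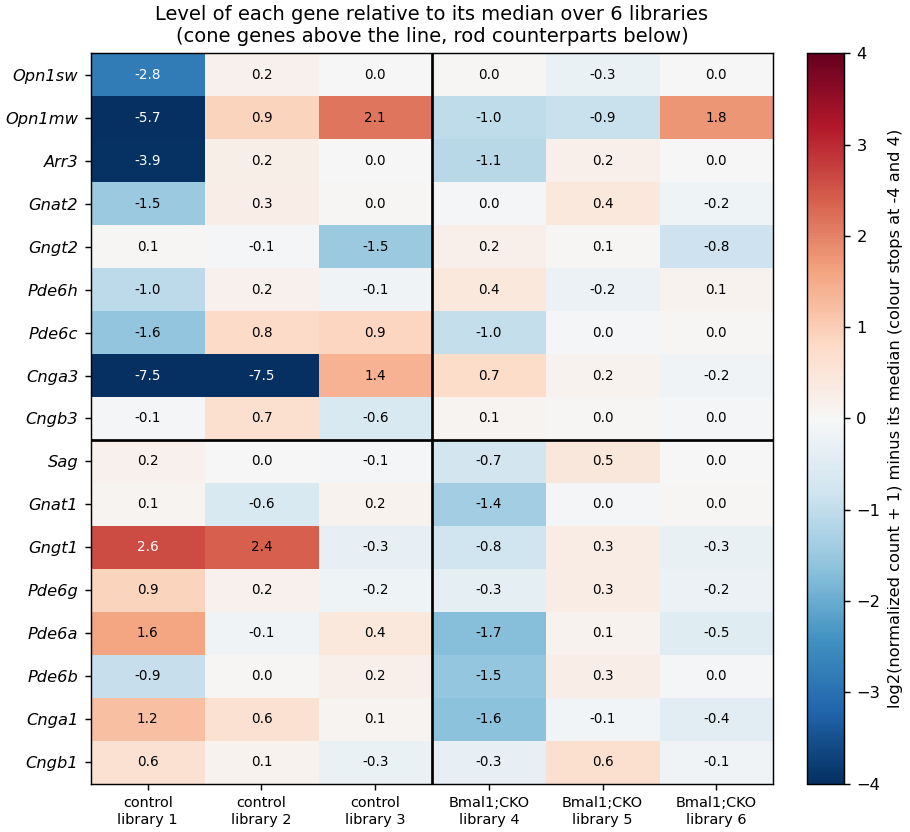
Level of each cone gene (above the line) and of 8 rod counterparts (below the line) in each library, as log2(normalized count + 1) minus its median over the 6 libraries; red is above and blue below the median. Low cone values gather in control library 1, and low rod values in Bmal1;CKO library 4.

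Other genes of the light response, shared by or related to this cascade, were described by a list of 16. Of these, 6 had higher and 10 lower fitted means in the mutant libraries. Their median log2 fold change was -0.32, and 0 of 16 were called at an adjusted p under 0.05. At an unadjusted p under 0.05 there were 3 of 16, against 4.92% of all genes, and all were lower: Gnb5, a partner of the RGS9 protein that ends the transducin signal, at -0.78; Rcvrn, the calcium sensor recoverin, at -0.997; and Aipl1, a chaperone of the phosphodiesterase, at -0.87. The groups did not overlap for 2 of 16, near the 11.2% of all genes. These were Gnb5 and Rgs9bp, both lower in Bmal1;CKO. Gnb5 had 7343, 9618 and 8200 normalized counts in control and 3820, 5498 and 5425 in Bmal1;CKO. Rgs9bp, the membrane anchor of RGS9, had 1026, 1298 and 977 in control and 203.9, 537 and 845 in Bmal1;CKO. The highest value of the list was that of Slc24a2, the cone sodium, calcium and potassium exchanger, at 2.58, with 0 reads in control library 2 and no more than 166 normalized counts in any library. The adjusted p of each of these genes was 0.883 by limma-trend.

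Retinoid handling supplies cones with chromophore. Of 7 genes of this list 5 were higher and 2 lower, with a median log2 fold change of 0.24. In this list 0 of 7 were at an unadjusted p under 0.05 and 0 of 7 had groups without overlap, against 4.92% and 11.2% of all genes. The values ran from -0.46 for Rdh12 to 0.70 for Rdh8, both retinol dehydrogenases of photoreceptors.

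Regulators of photoreceptor fate and opsin choice formed a list of 11. They include factors of rods as well as cones, and not all are transcription factors. Of the 11, 8 were higher and 3 lower, with a median log2 fold change of 0.14. Rxrg, a retinoid X receptor that takes part in opsin patterning, was the only one at an unadjusted p under 0.05 and the only one whose groups did not overlap. That is 1 of 11 on each count, against 4.92% and 11.2% of all genes. It had 1558, 956 and 1477 normalized counts in control and 2169, 2408 and 2039 in Bmal1;CKO. Its log2 fold change was 0.76, the highest of the list, with an SE of 0.31 (unadjusted p 0.0432, adjusted p 0.883 by limma-trend). The lowest value was that of Crx, a factor of rods and cones, at -0.19. Rxrg did not share the profile of Opn1sw, for which control library 2, the lowest for Rxrg, was the highest.

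Marker lists of other cell types were compared between the genotypes by their fitted means, and 0 of their genes were called at an adjusted p under 0.05. Of 14 endothelial markers, 1 was higher (Plvap, a protein of vessel fenestrae, 0.47) and 13 lower, down to -1.22 for the transcription factor Erg, with a median log2 fold change of -0.45. Control library 1 had the highest summed endothelial level, 437196 normalized counts against 149315 to 316986 in the others. The fold changes of these marker lists are not given without it. Of 10 microglia markers, 9 were higher, up to 0.63 for the fractalkine receptor Cx3cr1, and 1 was lower (Aif1, -0.19), with a median of 0.34. Of 8 Müller glia markers, 7 were tested and all 7 were higher, from 0.02 for the glutamate transporter Slc1a3 to 1.33 for Sox9, with a median of 0.48. Sox9, a transcription factor of glia, was the only one of these genes at an unadjusted p under 0.05 (0.0238 by limma-trend, adjusted 0.883). It was also the only one whose groups did not overlap. On each count this was 1 of 7 tested Müller glia markers, 0 of 14 endothelial markers and 0 of 10 microglia markers. The shares of all genes were 4.92% and 11.2%. Aqp4, the water channel of Müller glia, had 0 normalized counts in 4 of the 6 libraries. The part of other cell types in the cone gene values was not tested.

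Genes that lie on or near the cone genes were examined because reads in shared exons cannot be told apart without strand, and the kit used does not mark strand. Exons of 3 of the cone genes overlapped exons of a neighbor on the opposite strand. Opn1sw shares 397 bases, 15.5% of its exon length, with Calu, a calcium-binding protein of the secretory pathway. Calu had 9518, 18127 and 22754 normalized counts in control and 7374, 7229 and 16494 in Bmal1;CKO. Calu was lowest in Bmal1;CKO libraries 4 and 5, and control library 1 was its lowest control, as for Opn1sw. The part of shared reads in the Opn1sw level was not tested. Gngt2 shares 234 bases, 12.5%, with Abi3, a gene of microglia and other myeloid cells. Abi3 had 5320, 2032 and 2374 normalized counts in control and 4934, 3267 and 3491 in Bmal1;CKO, below Gngt2 in every library. Pde6h shares 136 bases, 1.73%, with Arhgdib, a regulator of small GTPases in blood cells, which had 13074 to 34918 normalized counts, above Pde6h in every library. The Pde6h level is therefore uncertain in so far as such reads were counted.

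Among 21 other genes within 10 kilobases of the 9 cone genes, 15 were tested. The groups did not overlap for 1 of the 15, against 11.2% of all genes. This was Ccdc136, which lies 7840 bases from Opn1sw and had 2928, 9017 and 7201 normalized counts in control and 14214, 18105 and 10972 in Bmal1;CKO. Its log2 fold change was 1.30, with an adjusted p of 0.883 by limma-trend. The groups overlapped for Opn1sw.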

How the data were processed

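RNA was measured in GFP and tdTomato double-positive cells sorted from P7.5 retinas of 3 control and 3 Bmal1;CKO animals, amplified with the Smart v4 kit and prepared with Nextera XT. The authors used FastQC and Trimmomatic on the reads, Bowtie for alignment to mm10 (GRCm38), featureCounts for counts per gene and DESeq2 for normalization. Tool versions and the use of strand in counting are not given in the sources used here. The deposited values are a signal, each being the count of a gene over the size factor that DESeq2 gave the library (0.711 to 1.40). Its columns of the authors' own comparison (mean, fold change, p-values) were not used. Dividing each column by its smallest step gave whole reads, to within 0.1 of a read, for 100% of the values. Depth is the number of reads on genes, 71145068 to 104017800 per library. A count of 0 allows 3 reads, which is 2.14 to 4.22 normalized counts, and such limits cover counting error only, as the libraries were amplified.

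Columns name the genotype and were used as replicates of it. They are called control libraries 1 to 3 and Bmal1;CKO libraries 4 to 6, and they were not matched to single animals because their numbers differ from those of the labels. P-values measure the spread between these libraries. A gene was tested if 3 or more libraries had 10 or more reads, with limma-trend on log2(normalized count + 1), genotype as the only term and Benjamini-Hochberg adjustment over 20459 genes (R 4.3.3, limma 3.58.1). Fold changes on this scale depend on the pseudocount for low genes, and may be understated or, with libraries at 0 reads, overstated. For single values, exact permutation tests were run, which cannot go below 0.1. Alternatives on the recovered reads were edgeR 4.0.16 (TMM or deposited size factors), limma-voom and DESeq2 1.42.0 (without shrinkage or with a normal prior). Others were pseudocounts of 0.5 and 10, at least 1 read in total, at least 10 reads in every library, and each library left out in turn. The test code was checked on simulated data. Gene spans came from the deposited values, whose starts, counted from 0, were raised by 1. Exon lengths and exon overlaps came from GENCODE M21, which holds 55227 of the 55487 identifiers. Tables were made in Python 3.11.15 with numpy 2.4.6, pandas 2.3.3 and scipy 1.17.1, and figures with matplotlib 3.10.9.

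The cone genes and the other lists were chosen with earlier results of these data known. The genes named are the 9 cone genes and their rod counterparts. Of each other list they are those at an unadjusted p under 0.05, those without overlap of the groups and the highest and lowest log2 fold change. Also in the rule are genes that overlap a cone gene or lie within 10 kilobases of it, of which those that share exons or whose groups did not overlap are given with values, and the genes with the most similar levels: 5 for the mean of the cone genes, 3 for Opn1sw and 3 for Gngt2. Gnb3, Aqp4 and Bmal1 fall outside this rule. Some genes of these lists are not reported here, and the list values given leave them out.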

Additional observations from a re-analysis of the deposited data

How the results depend on the processing

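In every alternative run, 0 of the cone genes given an adjusted p were under 0.05. By DESeq2, without shrinkage or with a normal prior, Cnga3 was given none. Over all genes, the number at an adjusted p under 0.05 was 0 by limma-trend, edgeR and limma-voom, 67 by DESeq2 without shrinkage and 34 with a normal prior. It was 1 with at least 1 read in total, 1 with at least 10 reads in every library (which left out Opn1mw and Cnga3) and 6 without control library 1. The median log2 fold change of all genes was 0.11 by limma-trend and limma-voom, and -0.031 by edgeR with TMM scaling, -0.029 with the deposited size factors and -0.028 by DESeq2 without shrinkage. The number of cone genes at an unadjusted p under 0.05 was 1 by limma-voom (Cnga3, p 0.0447, adjusted 0.905), and 0 to 1 with a library left out. Of all genes, 4.87% were at that level by limma-voom, 8.65% without control library 1 and 11.9% without control library 3. The 1 was Pde6c without control library 1 (unadjusted p 0.0292), or Cnga3 without control library 3 (log2 fold change 7.73, unadjusted p 0.000266, adjusted 0.1997). The median log2 fold change of the cone genes ran from -0.080 to 0.80 with a library left out, and turned negative only without control library 1. It was 0.64 without Gngt2, an alternative chosen after the data were seen. The cone minus rod difference ran from 0.58 to 2.42 with a library left out. Opn1mw turned to -0.51 by edgeR with TMM, -0.52 with the deposited size factors and by DESeq2 without shrinkage, -0.092 with the prior and -0.040 with a pseudocount of 10. Cngb3 turned to -0.048 and -0.052 by edgeR with these scalings, -0.051 by DESeq2 without shrinkage and -0.037 with the prior. With a library left out, values of both signs were seen for Opn1sw (-0.15 to 1.34), Opn1mw (-1.57 to 2.33), Arr3 (-0.40 to 1.69), Gnat2 (-0.080 to 0.80), Gngt2 (-0.19 to 0.62), Pde6c (-1.14 to 0.075) and Cngb3 (-0.27 to 0.37). The cause of these changes was not tested, beyond the library or scale each leaves out or alters. No paired analysis was possible because the columns number the libraries 1 to 6 across the table and carry none of the replicate numbers of the labels.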
